A study of Mus musculus with 6 samples.

Results

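The Gpr-named genes were the 40 rows, of 15487 genes in the deposited table, whose symbol begins with Gpr followed by a digit. They were measured by RNA sequencing in tumour-associated macrophages that had been sorted by flow cytometry 15 days after tumour challenge. There were 3 libraries of macrophages from CT26-Sg-C3 tumours and 3 from CT26-Sg-Con tumours. CT26 is a mouse colon carcinoma line, and Sg is read here as a single guide RNA, against complement C3 or as a control, carried by the tumour cells. Both groups are labelled wild type on the BALB/C background. The labels do not say whether the CT26 lines were single clones, or give the age of the animals. They also do not say whether animals were pooled or each library had its own mouse. The p-values therefore set the difference between groups against the spread of these libraries only, and that spread may be technical.

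Gpr is a provisional name, given to receptor genes found by sequence before their ligands were known, so these genes are a collection by name and not a pathway. A G protein-coupled receptor binds a ligand outside the cell and activates a G protein inside it, which changes cyclic AMP, calcium or the cytoskeleton. In macrophages, members of the collection are known to sense extracellular acid, oxysterols, lysophospholipids and fatty acids. Several others are proteins of the Golgi or lysosome that do not act as classical surface receptors.

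Levels are given in FPKM, fragments per kilobase of transcript scaled to the size of the library, which can be compared between genes. The steps between low values of short genes gave an estimated 17.6 to 19.3 megareads per library, so 1 FPKM stands for about 17.6 to 19.3 reads per kilobase of transcript. Over all genes, libraries of 1 group correlated at r of 0.986 to 0.990 and libraries of different groups at 0.945 to 0.974, on the log2 scale. C3 itself had 150.59, 199.14 and 169.61 FPKM in Sg-C3 libraries, against 89.94, 78.24 and 59.66 FPKM in Sg-Con libraries (log2 fold change 1.19, SE 0.17, limma adjusted p = 0.0032). These are sorted host cells, so C3 RNA here does not check the guide in the tumour cells.

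The macrophage label was checked against 7 markers, which were detected in every library. Their summed level was 3880 to 5200 FPKM in Sg-C3 libraries and 8950 to 10700 FPKM in Sg-Con libraries, and 4 of 7 fell. Lyz2 made up most of that sum, and without it the other 6 summed to 1170 to 1470 FPKM in Sg-C3 and 1890 to 2030 FPKM in Sg-Con. Cd68, Itgam and Mertk, which fell with Lyz2, averaged 403, 304 and 13.7 FPKM in Sg-C3, against 725, 523 and 42.3 FPKM in Sg-Con. Over all tested genes 31.7% fell. Adgre1, Fcgr1 and Csf1r averaged 172, 84.5 and 324 FPKM in Sg-C3, against 173, 85.9 and 402 FPKM in Sg-Con, and did not pass. Markers of other cell types were summed in the same way. Their calls are those of the fit without a filter, since several would enter the filtered test only through the group where they are high. In that fit 10% of all genes were higher and 22.1% lower. The summed level of 8 NK and cytotoxic cell markers was 31.2 to 38.3 FPKM in Sg-C3 and 1.52 to 4.15 FPKM in Sg-Con, and 7 of 8 were higher. The summed level of 7 T cell markers was 15.2 to 23.2 FPKM in Sg-C3 and 2.19 to 5.89 FPKM in Sg-Con, and 6 of 7 were higher. Cd4, which myeloid cells can also carry, made up most of the T cell sum in Sg-C3. The other 6 summed to 5.71 to 7.67 FPKM in Sg-C3 and 1.73 to 3.31 FPKM in Sg-Con, and Cd3e, at 1.07 FPKM in Sg-C3 and 1.19 FPKM in Sg-Con, did not pass. For 11 dendritic cell markers the sum was 73.2 to 145 FPKM in Sg-C3 and 23.0 to 42.5 FPKM in Sg-Con. Of these 6 of 11 were higher, and Flt3, Zbtb46, Cd209a, Fscn1 and Siglech were not called. Cd24a and Ccr7 made up most of the sum, averaging 56.5 and 32.8 FPKM in Sg-C3 and 17.1 and 2.43 FPKM in Sg-Con. For 7 neutrophil markers the sum was 369 to 1300 FPKM in Sg-C3 and 113 to 203 FPKM in Sg-Con, with 4 of 7 higher. S100a8 and S100a9 made up most of that sum, and Cxcr2, Ly6g and Camp were not called. For 5 B cell markers it was 4.72 to 6.91 FPKM in Sg-C3 and 1.76 to 4.62 FPKM in Sg-Con, with none called. For 6 fibroblast markers it was 135 to 195 FPKM in Sg-C3 and 57.6 to 77.8 FPKM in Sg-Con, with 2 of 6 higher and 1 lower. For 4 endothelial markers it was 59.7 to 78.7 FPKM in Sg-C3 and 9.37 to 17.7 FPKM in Sg-Con, with 1 of 4 higher and 1 lower. For 5 carcinoma markers the sum was 2.24 to 3.03 FPKM in Sg-C3 and 15.2 to 29.5 FPKM in Sg-Con, with 2 of 5 lower. Krt8 made up most of that sum in Sg-Con, and Epcam, Krt18 and Krt19 were not called. For 5 eosinophil and mast cell markers the sum was 6.46 to 28.4 FPKM in Sg-C3 and 1.20 to 8.84 FPKM in Sg-Con. Of these 2 of 5 were higher, Cpa3 and Mcpt4, and Siglecf, Ccr3 and Epx were not called. No marker was listed at 0 in all 6 libraries. The part of these cells in the results on receptors was not tested, and in bulk RNA fewer cells of a type and less RNA per cell cannot be told apart.

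The sequences upstream of 4 receptor genes are shown, chosen for the values given next, and other called genes are not shown. Gpr18 and Gpr183 neighbour each other within the gene Ubac2 and changed in opposite directions, and Gpr55 and Gpr4 were above 1 FPKM in every Sg-C3 library and under 1 FPKM in every Sg-Con library. Each is the 250 bases before the gene's start in RefSeq, build GRCm38.p6, read 5′ to 3′ on the gene's strand. That build is not the mm8 build named in the submitters' processing notes. Capitals mark matches to a pair of interferon-linked motifs, GAS (TTCNNNGAA) and ISRE (GAAA, any pair of bases, then GAAA), each searched on both strands.
Gpr18, chr14:121915889-121916138, minus strand: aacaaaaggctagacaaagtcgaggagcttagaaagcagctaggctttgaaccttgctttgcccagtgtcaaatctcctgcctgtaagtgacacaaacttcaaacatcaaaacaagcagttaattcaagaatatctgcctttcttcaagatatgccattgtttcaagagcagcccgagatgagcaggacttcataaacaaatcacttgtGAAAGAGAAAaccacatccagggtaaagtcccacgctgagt
Gpr183, chr14:121965194-121965443, minus strand: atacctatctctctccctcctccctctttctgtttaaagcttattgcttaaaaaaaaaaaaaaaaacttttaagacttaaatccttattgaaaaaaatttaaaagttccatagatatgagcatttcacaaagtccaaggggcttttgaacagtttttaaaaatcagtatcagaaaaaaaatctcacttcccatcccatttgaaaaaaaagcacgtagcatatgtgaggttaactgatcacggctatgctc
Gpr55, chr1:85961056-85961305, minus strand: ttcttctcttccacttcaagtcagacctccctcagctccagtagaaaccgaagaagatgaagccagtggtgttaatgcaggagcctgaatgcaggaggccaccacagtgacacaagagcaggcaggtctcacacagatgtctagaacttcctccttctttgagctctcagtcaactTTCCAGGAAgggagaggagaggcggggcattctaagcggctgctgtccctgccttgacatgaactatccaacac
Gpr4, chr7:19212288-19212537, plus strand: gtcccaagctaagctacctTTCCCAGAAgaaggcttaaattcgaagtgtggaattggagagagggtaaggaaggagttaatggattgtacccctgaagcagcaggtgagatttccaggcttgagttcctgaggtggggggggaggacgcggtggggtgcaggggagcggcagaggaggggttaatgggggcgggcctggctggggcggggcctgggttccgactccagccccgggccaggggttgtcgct

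Gpr18 held 1 ISRE match, 41 to 32 bases before the start. Gpr55 held 1 GAS match, 74 to 66 bases before the start, and Gpr4 held 1 GAS match, 231 to 223 bases before the start. Gpr183 held neither set of letters. Of 31 Gpr-named genes with a window, 5 held GAS and 2 held ISRE, against 8.13% and 3.46% of 27018 genes. Of the 10 called genes with a window, 2 held GAS (Gpr4 and Gpr55) and 2 held ISRE (Gpr18 and Gpr19). A match is a description of letters in the window and not a binding site.

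Many Gpr-named genes were low. The mean over the 6 libraries had a median of 2.57 FPKM over the 40 genes, against 4.85 FPKM over all genes. It was under 1 FPKM for 14 of 40, or 35.0%, against 28.1% of all genes, between 1 and 10 FPKM for 12, and at least 10 FPKM for 14. Gpr132, Gpr35, Gpr137b-ps and Gpr84 were the 4 highest, with mean levels of 66.6, 55.6, 50.3 and 48.6 FPKM over the 6 libraries, and none of them passed the test between the groups. The summed level of the 40 genes was 438.3, 558.0 and 578.2 FPKM in Sg-C3 libraries and 498.2, 464.0 and 428.7 FPKM in Sg-Con libraries. The sums of the groups overlapped.

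**Figure D1:**
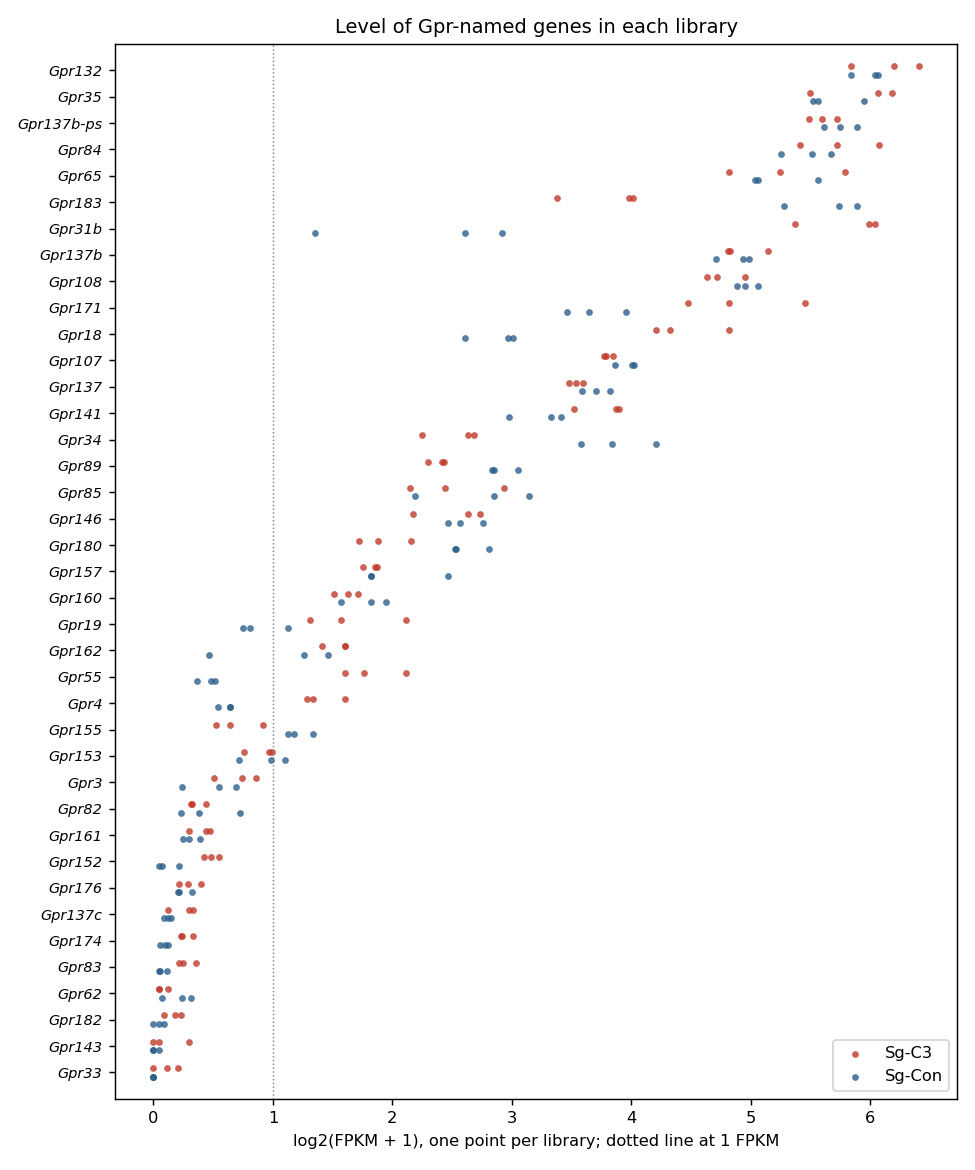
Level of the Gpr-named genes reported here as log2(FPKM + 1), 1 point per library, with Sg-C3 in red above Sg-Con in blue and a dotted line at 1 FPKM. Genes are ordered by their mean over the 6 libraries, with Gpr132 at the top, and 14 genes have a mean under 1 FPKM.

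In macrophages from Sg-C3 tumours 7 Gpr-named genes rose (Gpr31b, Gpr18, Gpr55, Gpr171, Gpr4, Gpr19 and Gpr141) and 5 fell (Gpr183, Gpr34, Gpr180, Gpr89 and Gpr155). They were among 27 that reached 1 FPKM in at least 3 of 6 libraries and so were tested, with limma on log2(FPKM + 1) and an adjusted p below 0.05 over 11198 genes. The share called in either direction was 44.4%, the same as the background of 44.4% of all tested genes. Higher calls made up 25.9% against a background of 12.7%, and lower calls 18.5% against a background of 31.7%. Those backgrounds, also used below, are from FPKM without further scaling, and the contrast narrowed with scaling. Lower calls were 41.7% of the members' calls and 71.5% of all calls. After median-ratio scaling, which rescales each library, 7 members were higher and 5 lower. Over all genes 2198 were then higher and 1971 lower, or 47.3% lower. A change of at least 1 on the log2 scale, either way, was called for 6 members, against a background of 8.2%. The groups did not overlap for 13 of the 27, against a background of 57.6%.

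Each fold change is the Sg-C3 mean minus the Sg-Con mean of log2(FPKM + 1), a scale that understates the change of low genes. The median log2 fold change was -0.08 over the 27 genes and -0.16 over all tested genes, and median-ratio scaling set the median of all genes to 0. Gpr4 and Gpr55 passed the filter on low values only through Sg-C3 libraries, and Gpr155 only through Sg-Con libraries, so these genes had to differ to be tested. Without a filter 8 of 40 were higher, against a background of 10%, and 5 were lower, against a background of 22.1%. In that fit the groups did not overlap for 16 of 40, against a background of 49.1%, and 5.96% of all genes were called with a change of at least 1 on the log2 scale. Of the 9 called genes that passed the filter without each library in turn, 7 were called every time. In the same 6 fits without a filter, Gpr31b, Gpr18, Gpr55, Gpr4, Gpr183 and Gpr34 were called every time, Gpr89 in 5, Gpr171 in 4, Gpr180 in 3, Gpr19 and Gpr155 in 1 and Gpr141 in none.

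**Figure D2:**
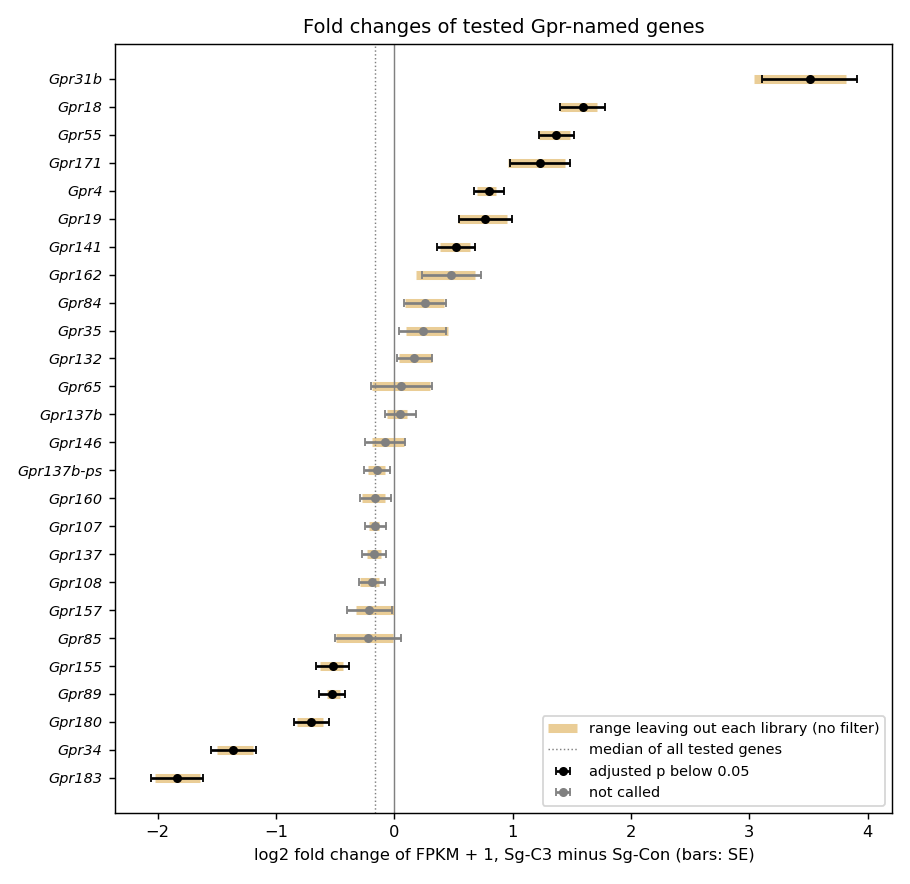
Log2 fold change of FPKM + 1, Sg-C3 minus Sg-Con, of the tested Gpr-named genes reported here, with limma's SE as bars, black where the adjusted p was below 0.05 and grey otherwise. Shaded bands span the fits without each library in turn and without a filter, and the dotted line is the median of all tested genes, -0.16. Gpr31b lies at 3.51 and Gpr183 at -1.84.

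Receptors for lipids and metabolites held the largest called changes in each direction. Of 7 tested members 3 were higher and 2 lower, a small group beside backgrounds of 12.7% higher and 31.7% lower. Gpr55, counted among the 3, passed the filter only through Sg-C3 libraries. Gpr31b is the mouse relative of human GPR31, a receptor for a lipoxygenase product, and in mouse gut phagocytes it is known to sense lactate and pyruvate. It had 40.32, 64.91 and 62.55 FPKM in Sg-C3 libraries, against 6.54, 1.56 and 5.10 FPKM in Sg-Con libraries. Every Sg-C3 value was above every Sg-Con value, and Sg-Con replicate 2 was the lowest. The ratio of the mean levels was 12.7 (log2 fold change 3.51, SE 0.40, limma adjusted p = 0.0019).

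Gpr18, for which N-arachidonoyl glycine is a proposed ligand, also rose. It had 17.50, 27.24 and 19.01 FPKM in Sg-C3 libraries, against 7.07, 5.10 and 6.83 FPKM in Sg-Con libraries (log2 fold change 1.59, SE 0.19, limma adjusted p = 0.00203). The lowest Sg-C3 value was above the highest Sg-Con value. Gpr55, a receptor for lysophosphatidylinositol, had 2.03, 3.32 and 2.39 FPKM in Sg-C3 libraries, against 0.29, 0.40 and 0.43 FPKM in Sg-Con libraries (log2 fold change 1.37, SE 0.15, limma adjusted p = 0.00189). Without a filter Gpr55 was called in each of the 6 fits that left out 1 library.

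Gpr183, also called EBI2, guides immune cells along gradients of a dihydroxylated cholesterol, and it fell. It had 9.40, 15.16 and 14.77 FPKM in Sg-C3 libraries, against 52.48, 58.11 and 37.68 FPKM in Sg-Con libraries. The groups did not overlap, and the mean levels were 13.1 ± 3.22 FPKM in Sg-C3 and 49.4 ± 10.6 FPKM in Sg-Con (SD, n = 3 each; log2 fold change -1.84, SE 0.22, limma adjusted p = 0.00205). Enzymes that make and degrade its ligand were measured too.

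Ch25h, which makes the ligand's precursor from cholesterol, had 9.20, 14.88 and 16.42 FPKM in Sg-C3 libraries, against 79.57, 34.76 and 76.56 FPKM in Sg-Con libraries (log2 fold change -2.10, SE 0.34, limma adjusted p = 0.00465). Sg-Con replicate 2 was the lowest of its group and still above every Sg-C3 value. Hsd3b7, which breaks the ligand down, had 17.52, 21.65 and 28.33 FPKM in Sg-C3 libraries, against 40.35, 49.29 and 33.95 FPKM in Sg-Con libraries (log2 fold change -0.85, SE 0.20, limma adjusted p = 0.0131). Cyp7b1, which completes the synthesis, had 0.13, 0.17 and 0.07 FPKM in Sg-C3 libraries and 0.02, 0.03 and 0.00 FPKM in Sg-Con libraries. It was too low for the filter, and without a filter it was not called (limma adjusted p = 0.135). Cyp27a1, also listed for Gpr183, had 13.29, 15.66 and 24.03 FPKM in Sg-C3 libraries and 18.20, 10.05 and 12.60 FPKM in Sg-Con libraries. Its groups overlapped, and it did not pass (log2 fold change 0.35, SE 0.26, limma adjusted p = 0.303).

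Gpr34, a lysophosphatidylserine receptor known from microglia and other macrophages, fell as well. It had 3.74, 5.41 and 5.21 FPKM in Sg-C3 libraries, against 17.50, 13.29 and 10.96 FPKM in Sg-Con libraries (log2 fold change -1.36, SE 0.19, limma adjusted p = 0.00301), and the groups did not overlap. Gpr34 lies within the gene Cask, which had 2.44, 2.64 and 2.79 FPKM in Sg-C3 libraries, against 3.39, 4.30 and 3.84 FPKM in Sg-Con libraries (log2 fold change -0.42, SE 0.11, limma adjusted p = 0.0235). The sources used here do not say whether reads were counted by strand, so reads of overlapping genes may not be told apart. Gpr174, another lysophosphatidylserine receptor, had 0.26, 0.17 and 0.18 FPKM in Sg-C3 libraries and 0.04, 0.07 and 0.09 FPKM in Sg-Con libraries and was too low for the filter.

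Gpr84 and Gpr35 were abundant and did not pass. Gpr84, a receptor for medium-chain fatty acids, had 41.53, 66.35 and 51.82 FPKM in Sg-C3 libraries and 44.73, 37.09 and 49.96 FPKM in Sg-Con libraries (log2 fold change 0.26, SE 0.18, limma adjusted p = 0.283). Gpr35, for which kynurenic acid is a proposed ligand, had 43.98, 66.10 and 71.59 FPKM in Sg-C3 libraries and 44.79, 60.85 and 46.17 FPKM in Sg-Con libraries (log2 fold change 0.24, SE 0.20, limma adjusted p = 0.363). The groups overlapped for both genes.

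Gpr18 and Gpr183 are next to each other in the RefSeq annotation, and both overlap Ubac2. That gene had 14.10, 14.54 and 17.75 FPKM in Sg-C3 libraries and 17.04, 17.26 and 18.03 FPKM in Sg-Con libraries (log2 fold change -0.17, SE 0.11, limma adjusted p = 0.233), and its groups overlapped.

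**Figure D3:**
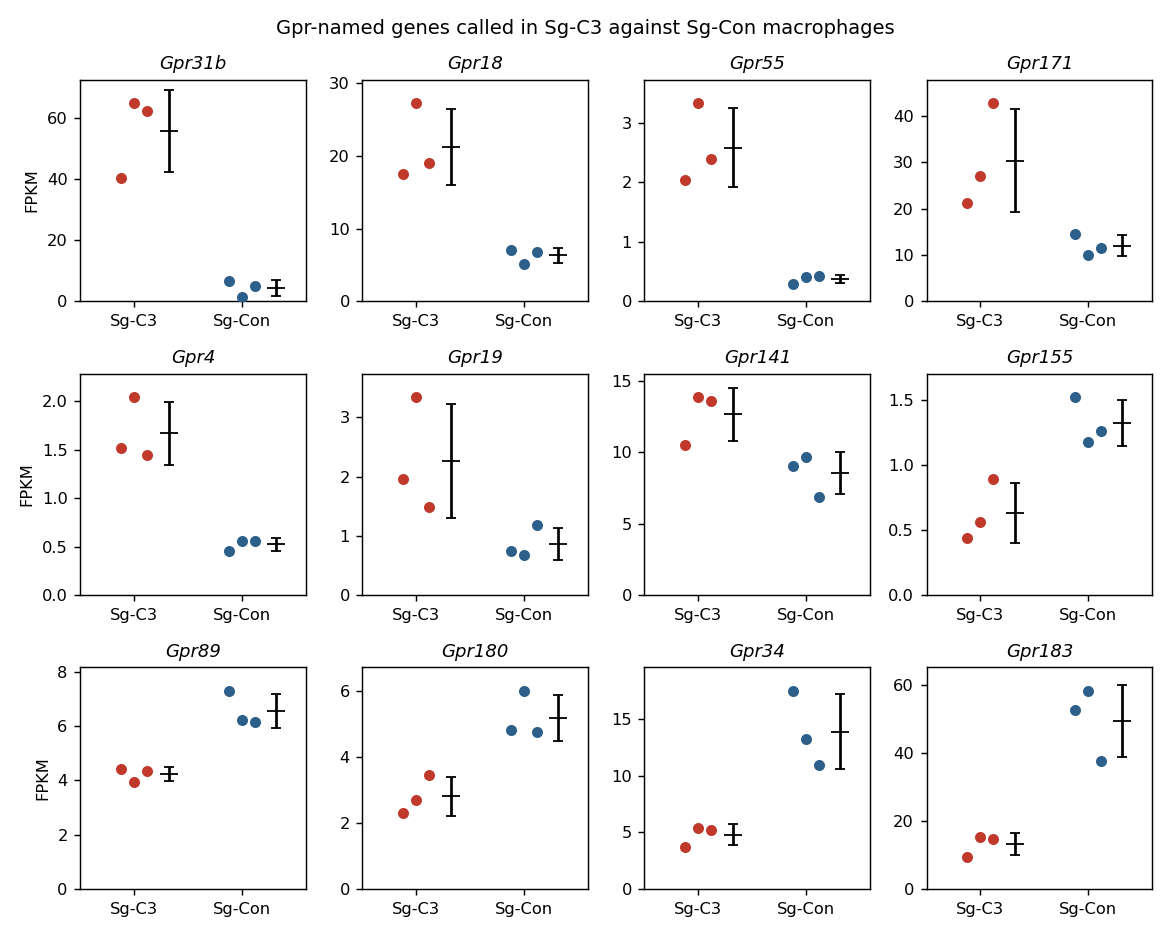
FPKM of the 12 called Gpr-named genes in each library, Sg-C3 in red left of Sg-Con in blue, with the mean and SD of 3 libraries in black beside the points. Panels run from the highest to the lowest log2 fold change, and the groups do not overlap in any of them.

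Among receptors activated by extracellular acid, Gpr4 rose. Gpr4, best known from endothelium, had 1.52, 2.04 and 1.44 FPKM in Sg-C3 libraries, against 0.45, 0.56 and 0.56 FPKM in Sg-Con libraries (log2 fold change 0.80, SE 0.13, limma adjusted p = 0.00424). The groups did not overlap, and without a filter the gene was called in each of the 6 fits that left out 1 library. Of the endothelial markers, Pecam1 had 55.54, 53.49 and 74.72 FPKM in Sg-C3 libraries, against 12.49, 4.54 and 9.95 FPKM in Sg-Con libraries. Cdh5 had 0.58, 0.88 and 0.65 FPKM in Sg-C3 libraries, against 1.01, 2.22 and 2.30 FPKM in Sg-Con libraries, and Kdr had 4.58, 5.20 and 3.27 FPKM in Sg-C3 libraries and 4.16, 2.42 and 3.28 FPKM in Sg-Con libraries (limma adjusted p = 0.213). Emcn was under 1 FPKM in every library. The part of endothelial cells in the level of Gpr4 was not tested.

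Gpr132 and Gpr65 did not pass, and the groups overlapped for both. Gpr132, an acid sensor that also responds to oxidized fatty acids, had 56.16, 72.49 and 83.96 FPKM in Sg-C3 libraries and 64.93, 65.81 and 56.24 FPKM in Sg-Con libraries (log2 fold change 0.17, SE 0.15, limma adjusted p = 0.398). Gpr65, which raises cyclic AMP in leukocytes, had 27.16, 36.95 and 54.36 FPKM in Sg-C3 libraries and 46.34, 31.75 and 32.42 FPKM in Sg-Con libraries (log2 fold change 0.06, SE 0.26, limma adjusted p = 0.849).

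Of the receptors known mainly from leukocytes, 2 of 4 tested rose and none fell, a small group beside backgrounds of 12.7% higher and 31.7% lower. Gpr171, found on T cells and myeloid cells, had 21.27, 27.13 and 42.75 FPKM in Sg-C3 libraries, against 14.51, 10.04 and 11.52 FPKM in Sg-Con libraries (log2 fold change 1.23, SE 0.25, limma adjusted p = 0.00886). Sg-C3 replicate 3 was the highest, and the groups did not overlap. Without it the log2 fold change was 0.96. Lymphocytes also express Gpr18, Gpr171 and Gpr183. The summed T cell markers other than Cd4 were 5.71 to 7.67 FPKM in Sg-C3 and 1.73 to 3.31 FPKM in Sg-Con. NK and cytotoxic cell markers summed to 31.2 to 38.3 FPKM in Sg-C3 and 1.52 to 4.15 FPKM in Sg-Con. Without a filter 6 of 7 T cell markers and 7 of 8 NK and cytotoxic markers were higher, against a background of 10%. Cd3e was not called. The part of lymphocytes in these results was not tested. Med12l, which Gpr171 overlaps, had 0.30, 0.24 and 0.21 FPKM in Sg-C3 libraries and 0.26, 0.26 and 0.13 FPKM in Sg-Con libraries.

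Gpr141, an orphan receptor, had 10.50, 13.86 and 13.62 FPKM in Sg-C3 libraries, against 9.05, 9.66 and 6.88 FPKM in Sg-Con libraries (log2 fold change 0.52, SE 0.16, limma adjusted p = 0.0319). The limma adjusted p of Gpr141 was 0.108 when Sg-C3 replicate 2 was left out, 0.073 when Sg-C3 replicate 3 was left out, 0.0541 when Sg-Con replicate 1 was left out and 0.0823 when Sg-Con replicate 3 was left out. It was 0.0506 in a fit with a covariate for how the samples were titled. The other tested members, Gpr146 and Gpr160, did not pass, with log2 fold changes of -0.08 and -0.16, or 0.08 and -0.03 after median-ratio scaling.

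Gpr-named proteins of the Golgi, the lysosome and other atypical members had 3 of 8 tested lower and none higher, a share of lower calls near the background of 31.7%. Gpr89, which regulates the pH of the Golgi, had 4.41, 3.93 and 4.33 FPKM in Sg-C3 libraries, against 7.29, 6.23 and 6.14 FPKM in Sg-Con libraries (log2 fold change -0.53, SE 0.11, limma adjusted p = 0.0087). Gpr180, which is not a typical receptor in sequence, had 2.29, 2.68 and 3.45 FPKM in Sg-C3 libraries, against 4.80, 5.99 and 4.74 FPKM in Sg-Con libraries (log2 fold change -0.70, SE 0.15, limma adjusted p = 0.00984). Neither gene's groups overlapped. Pdzk1, which Gpr89 overlaps, had 0.48, 0.90 and 0.54 FPKM in Sg-C3 libraries and 0.83, 0.88 and 1.08 FPKM in Sg-Con libraries.

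Gpr155, a lysosomal cholesterol sensor, had 0.44, 0.56 and 0.89 FPKM in Sg-C3 libraries, against 1.52, 1.18 and 1.26 FPKM in Sg-Con libraries (log2 fold change -0.52, SE 0.14, limma adjusted p = 0.0229). Its limma adjusted p was 0.0731 when Sg-C3 replicate 1 was left out and 0.0735 when Sg-C3 replicate 2 was left out, and without any 1 Sg-Con library it was too low for the filter. After median-ratio scaling Gpr89, Gpr180 and Gpr155 were still called, with log2 fold changes of -0.37, -0.55 and -0.42.

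The other 5 tested genes of that kind were abundant and did not pass. Gpr137b-ps, a pseudogene nearly identical to the lysosomal gene Gpr137b, had 51.77, 47.49 and 43.73 FPKM in Sg-C3 libraries and 58.26, 52.62 and 48.04 FPKM in Sg-Con libraries (log2 fold change -0.15, SE 0.11, limma adjusted p = 0.285). Its log2 fold change was 0.04 after median-ratio scaling. Reads may be split between the pair, and Gpr137b had a log2 fold change of 0.05. Gpr107, Gpr108 and Gpr137 had log2 fold changes of -0.16, -0.19 and -0.17, near the median of all genes, and 0.02, -0.01 and 0.01 after median-ratio scaling. Gpr108 is the neighbour of C3 in the annotation.

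Of the 11 genes outside these groups, 1 of 4 tested rose, against a background of 12.7%. Gpr19, an orphan receptor, had 1.96, 3.34 and 1.48 FPKM in Sg-C3 libraries, against 0.75, 0.68 and 1.18 FPKM in Sg-Con libraries (log2 fold change 0.77, SE 0.22, limma adjusted p = 0.0268). The groups did not overlap, but its limma adjusted p was 0.0607 when Sg-C3 replicate 1 was left out, 0.061 when Sg-C3 replicate 2 was left out, 0.0688 when Sg-Con replicate 1 was left out and 0.0771 when Sg-Con replicate 2 was left out. Crebl2, which Gpr19 overlaps, had 2.94, 3.22 and 3.52 FPKM in Sg-C3 libraries and 2.44, 2.82 and 2.76 FPKM in Sg-Con libraries. Crebl2 did not pass (log2 fold change 0.20, SE 0.11, limma adjusted p = 0.165), though its groups did not overlap. Gpr85, Gpr157 and Gpr162 did not pass.

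The 13 genes that the filter left out had mean levels of 0.0383 to 0.9 FPKM, and no library exceeded 1.14 FPKM for any of them. They were Gpr153, Gpr3, Gpr82, Gpr161, Gpr152, Gpr176, Gpr137c, Gpr174, Gpr83, Gpr62, Gpr182, Gpr143 and Gpr33. Without a filter Gpr152 was called, with 0.34, 0.40 and 0.46 FPKM in Sg-C3 libraries, against 0.16, 0.03 and 0.05 FPKM in Sg-Con libraries (limma adjusted p = 0.0139). It overlaps Cabp4, which had 3.36, 2.68 and 4.70 FPKM in Sg-C3 libraries, against 1.5, 0.26 and 0.90 FPKM in Sg-Con libraries (log2 fold change 1.31, SE 0.27, limma adjusted p = 0.00922). The other 12 had limma adjusted p values of 0.0631 to 0.894. Gpr33 was listed at 0 in all Sg-Con libraries.

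The genes that carry receptor signals onward were counted in lists. Of 50 tested genes of G proteins, their regulators and the cyclic AMP enzymes, 9 rose and 18 fell, or 54.0% called against the background of 44.4%. Lower calls were 66.7% of these, against 71.5% of the calls over all genes. After median-ratio scaling 10 were higher and 11 lower, or 52.4% lower, against 47.3% over all genes. Leaving out Sg-C3 replicate 2 gave 5 higher and 13 lower. The median log2 fold change was -0.24, against -0.16 over all genes.

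Among G alpha subunits 1 of 9 tested rose and 3 fell, or 44.4% called, equal to the background of 44.4%. Gnai2, an inhibitory subunit abundant in leukocytes, had 297 ± 26 FPKM in Sg-C3 and 457 ± 17.1 FPKM in Sg-Con (SD, n = 3 each; log2 fold change -0.62, SE 0.09, limma adjusted p = 0.00357). Gna15, which couples receptors to phospholipase C, had 3.61 ± 0.535 FPKM in Sg-C3 and 7.11 ± 0.705 FPKM in Sg-Con (SD, n = 3 each; log2 fold change -0.82, SE 0.13, limma adjusted p = 0.00409). Gna12, another G alpha subunit, had 34.2 ± 5.95 FPKM in Sg-C3 and 60.1 ± 8.71 FPKM in Sg-Con (SD, n = 3 each; log2 fold change -0.80, SE 0.15, limma adjusted p = 0.00701). The subunit that rose was Gna13, at 142 ± 13.7 FPKM in Sg-C3 and 97.5 ± 6.44 FPKM in Sg-Con (SD, n = 3 each, log2 fold change 0.54, SE 0.10, limma adjusted p = 0.0072).

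Among beta and gamma subunits 2 of 11 tested rose and 7 fell, or 81.8% called against the same background. The gamma subunit Gng11 had 1.08 ± 0.162 FPKM in Sg-C3 and 3.09 ± 0.692 FPKM in Sg-Con (SD, n = 3 each; log2 fold change -0.97, SE 0.15, limma adjusted p = 0.00439). Gngt2, another gamma subunit, had 88.7 ± 8.36 FPKM in Sg-C3 and 44.8 ± 11.6 FPKM in Sg-Con (SD, n = 3 each; log2 fold change 1.00, SE 0.18, limma adjusted p = 0.0059). Gng12 had 16.5 ± 0.907 FPKM in Sg-C3 and 23.8 ± 1.71 FPKM in Sg-Con (SD, n = 3 each; log2 fold change -0.50, SE 0.09, limma adjusted p = 0.00691). After median-ratio scaling Gnb2, Gnb5, Gng5 and Gng10 were no longer called, at limma adjusted p of 0.601, 0.0827, 0.0875 and 0.0958.

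RGS proteins speed the switching off of G proteins, and 1 of 11 tested rose and 4 fell, or 45.5% called, near the background. Rgs9, best known from the retina and striatum, had 4.45 ± 1.90 FPKM in Sg-C3 and 0.370 ± 0.207 FPKM in Sg-Con (SD, n = 3 each; log2 fold change 1.95, SE 0.25, limma adjusted p = 0.00251). It passed the filter only through Sg-C3 libraries, so it had to differ to be tested, and was also called without a filter (limma adjusted p = 0.00369). Rgs19 had 20 ± 2.29 FPKM in Sg-C3 and 33.7 ± 4.82 FPKM in Sg-Con (SD, n = 3 each; log2 fold change -0.72, SE 0.13, limma adjusted p = 0.00667), and Rgs10 had 59.7 ± 8.03 FPKM in Sg-C3 and 88.3 ± 8.13 FPKM in Sg-Con (SD, n = 3 each; log2 fold change -0.56, SE 0.12, limma adjusted p = 0.0107). Receptor kinases and arrestins switch off the receptors themselves, and 2 of 7 tested rose and 2 fell, or 57.1% called against the background of 44.4%. The kinase gene Adrbk2 had 30 ± 1.92 FPKM in Sg-C3 and 9.88 ± 3.17 FPKM in Sg-Con (SD, n = 3 each; log2 fold change 1.55, SE 0.20, limma adjusted p = 0.0025). Grk4 had 20.4 ± 0.932 FPKM in Sg-C3 and 14.2 ± 1.07 FPKM in Sg-Con (SD, n = 3 each; log2 fold change 0.50, SE 0.09, limma adjusted p = 0.00705), and Grk6 had 17.1 ± 1.98 FPKM in Sg-C3 and 23.3 ± 1.09 FPKM in Sg-Con (SD, n = 3 each; log2 fold change -0.43, SE 0.11, limma adjusted p = 0.0173). Both lower calls, Grk6 and the arrestin gene Arrb2, were lost after median-ratio scaling, at limma adjusted p of 0.09 and 0.106, and each was lost in 4 of the 6 fits that left out 1 library.

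The cyclic AMP enzymes changed in both directions. Adenylyl cyclases make cyclic AMP, and 1 of 5 tested rose and 1 fell, or 40.0% called, near the background of 44.4%. Adcy4 had 2.20 ± 0.219 FPKM in Sg-C3 and 0.583 ± 0.154 FPKM in Sg-Con (SD, n = 3 each; log2 fold change 1.02, SE 0.12, limma adjusted p = 0.0021). It too passed the filter only through Sg-C3 libraries, and without a filter it was called (limma adjusted p = 0.00275). Adcy9 had 0.767 ± 0.211 FPKM in Sg-C3 and 2.16 ± 0.252 FPKM in Sg-Con (SD, n = 3 each; log2 fold change -0.84, SE 0.13, limma adjusted p = 0.00413). Phosphodiesterases break cyclic AMP down, and 2 of 7 tested rose and 1 fell, or 42.9% called. Pde7b had 11.1 ± 2.25 FPKM in Sg-C3 and 5.44 ± 0.960 FPKM in Sg-Con (SD, n = 3 each; log2 fold change 0.90, SE 0.18, limma adjusted p = 0.00799). Pde4b and Pde4a had log2 fold changes of 0.52 and -0.52, and their calls were lost without most single libraries, with limma adjusted p up to 0.107 for Pde4b and 0.0943 for Pde4a.

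**Figure D4:**
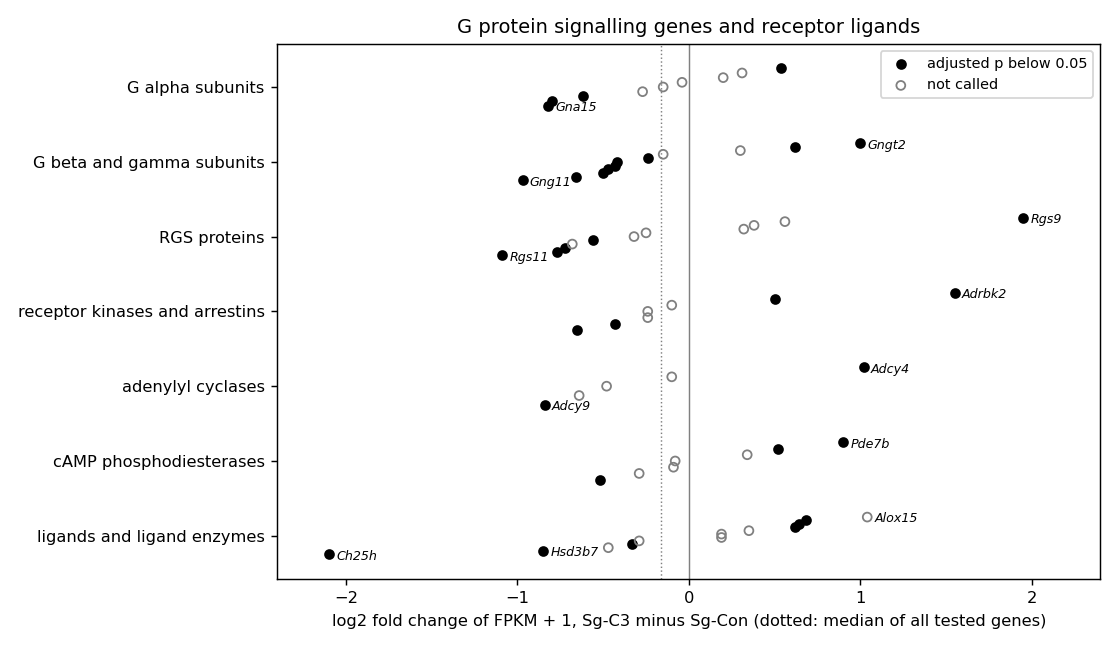
Log2 fold change of FPKM + 1, Sg-C3 minus Sg-Con, of each tested gene in the signalling lists and the ligand list, filled where the adjusted p was below 0.05. The dotted line is the median of all tested genes, -0.16. Ch25h lies lowest at -2.10 and Rgs9 highest at 1.95.

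Of 12 tested genes listed for ligands of Gpr-named receptors, or for enzymes that make or degrade them, 3 rose and 3 fell. That was 50% against the background of 44.4%. Psap, counted among the 3 that rose, was listed for Gpr37 and Gpr37l1, which are not among the 40 genes. Ddhd1, a phospholipase that can make lysophosphatidylinositol, the ligand of Gpr55, had 9.91 ± 1.06 FPKM in Sg-C3 and 6.09 ± 0.852 FPKM in Sg-Con (SD, n = 3 each; log2 fold change 0.62, SE 0.13, limma adjusted p = 0.0095). Beside Ch25h and Hsd3b7, Ldha, which makes lactate, fell, with 336 ± 14.8 FPKM in Sg-C3 and 421 ± 19.3 FPKM in Sg-Con (SD, n = 3 each; log2 fold change -0.33, SE 0.08, limma adjusted p = 0.0181). That call was lost after median-ratio scaling, at a limma adjusted p of 0.236. Pla1a, which makes lysophosphatidylserine, had 2.57 ± 0.909 FPKM in Sg-C3 and 1.19 ± 0.289 FPKM in Sg-Con (SD, n = 3 each; log2 fold change 0.68, SE 0.21, limma adjusted p = 0.0367), and its limma adjusted p was 0.114 when Sg-C3 replicate 1 was left out, 0.118 when Sg-C3 replicate 2 was, 0.0833 when Sg-Con replicate 1 was and 0.0961 when Sg-Con replicate 3 was. Psap, the precursor of saposins, had 2820 ± 184 FPKM in Sg-C3 and 1840 ± 476 FPKM in Sg-Con (SD, n = 3 each; log2 fold change 0.64, SE 0.18, limma adjusted p = 0.0254), and its limma adjusted p was 0.417 after quantile normalization. The call of Psap was also lost without any 1 library other than Sg-Con replicate 1, at limma adjusted p of 0.0513 to 0.0763.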

How the data were processed

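The authors deposited 1 table of FPKM per gene for all 6 libraries. Trizol was the extraction reagent and TruSeq and MGIEasy mRNA kits are both named for the libraries, per the labels' protocols. Bowtie 0.12.2 and build mm8 appear in the submitters' processing notes with no role, and the tool that computed FPKM, the annotation and the use of strand are not given in the sources used here. FPKM is not a count, so limma 3.58.1 in R 4.3.3 was fitted to log2(FPKM + 1), with a variance trend, for genes that reached 1 FPKM in 3 or more of 6 libraries. P-values were adjusted by Benjamini-Hochberg over all 11198 such genes, and a second fit kept all 15487. The same model without the filter step was run on simulated tables of the genes that passed the filter. Neither the filter nor the genes below it were part of that check. Depth was estimated from whole multiples of 1 read in 478 short genes, within a tolerance of 0.1. Alternatives were another pseudocount, filter, scaling, array weights, a covariate for the style of the sample titles, and leaving out each library. The members, gene lists and roles were chosen with earlier results of these data known. All called members, the 4 most abundant, the tested acid and lipid receptors, and the 3 called genes of smallest p in each list are named, and other genes were named after their values were seen. The values of 1 member are not reported here, and it is left out of the plots but not of the counts. Names, neighbours and upstream sequences come from RefSeq GRCm38.p6, in which all 40 genes were matched.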

Additional observations from a re-analysis of the deposited data

How the results depend on the processing

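The 7 higher and 5 lower calls were the same in number with a pseudocount of 0.1, quantile normalization, median-ratio scaling and array weights. A filter on the mean gave 7 and 4, and the covariate for title style 6 and 5. Leaving out 1 library gave 3 to 6 higher and 4 to 5 lower calls, partly because genes near 1 FPKM left the test. Without a filter, an alternative for which leaving out libraries was chosen after seeing the data, the 13 calls became 7 to 12. Calls over all genes were 2780 to 5062 without 1 library, against 4972 with all, 3 to 6 ligand genes were called, against 6, and 18 to 25 signalling genes, against 27. Lower calls were 71.5% of all calls, 56.9% with quantile normalization and 47.3% with median-ratio scaling, and the cause was not tested. Under median-ratio scaling 4 tested members, none of them called, changed sign: Gpr137b-ps to 0.04, Gpr107 to 0.02, Gpr137 to 0.01 and Gpr146 to 0.08. Gpr65 ranged from -0.19 to 0.30 without 1 library, below 0 without Sg-C3 replicate 3, Sg-Con replicate 2 or Sg-Con replicate 3. Over the 38 genes named by the rule given above, 445 of 478 values kept direction and call, 29 lost the call and 4 changed sign. The sign changes in that count were those of Gpr137b-ps and Gpr65. Gpr107, Gpr137, Gpr146 and other genes named after their values were seen were outside it. No paired analysis was possible because the labels number no replicates across groups.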
